A study of Mus musculus with 12 samples.

Results

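Fkbp5, Tsc22d3, Sgk1, Zbtb16, Klf9, Errfi1, Mt1, Mt2, Pdk4 and Sult1a1 were followed in mouse aorta as genes that respond to glucocorticoid hormones, together with the metallothioneins. They are 10 of the 25284 genes in the count table, taken by symbol, and all 10 are among the 15857 genes that had enough counts to be tested. The libraries came from the thoracic aorta of 12 male ApoE-/- mice on a C57BL/6 background, which lack apolipoprotein E and develop atherosclerosis, and both groups were fed a high fat diet enriched in cholesterol. The 6 control mice (C1 to C6) received vehicle and the 6 AZ6983 mice (A1 to A6) received AZ6983, an agonist of the α7 nicotinic acetylcholine receptor, at 50 µmol per kg per day. Osmotic minipumps delivered either one for 8 weeks, from 10 to 18 weeks of age. The question taken here was how these hormone-responsive genes differed between mice of 1 group and between the groups. Hormone levels in blood were not analysed here.

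Corticosterone, the main glucocorticoid of mice, is released by the adrenal gland with a daily rhythm and in stress. In the cell it binds the glucocorticoid receptor (Nr3c1), which then moves to the nucleus and binds DNA at glucocorticoid response elements, a pair of short half-sites facing each other. Fkbp5, Tsc22d3, Sgk1, Zbtb16, Klf9 and Errfi1 are well-known targets of the receptor in many tissues. Metallothioneins are small cysteine-rich proteins that bind zinc, and their genes answer to metals through the factor Mtf1, which binds metal response elements, and to glucocorticoids. Pdk4, a kinase that turns off pyruvate dehydrogenase, rises in fasting, and Sult1a1 transfers sulfate to phenols.

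The libraries held 23810036 to 35864666 counts on genes per mouse. Reads outside genes were 10.1% ± 1.55 (SD, n = 6) of the table in the control group and 12.8% ± 1.36 (SD, n = 6) in the AZ6983 group, a difference in an exact permutation test (two-sided, p = 0.0108). The smooth muscle gene Acta2 was at 3610 to 7101 CPM (each count divided by the TMM-scaled library size), and the brown fat gene Ucp1 at 1228 to 3728 CPM, so RNA of brown fat was present in every library. Apoe, whose gene is disrupted in both groups, still had 117 to 311 counts per mouse. In whole tissue, fewer cells of a type and less RNA per cell cannot be told apart. The mouse A4 held much T cell RNA (a mean of 6.402 log2 CPM over T cell and thymocyte genes, against -0.48 to 1.92 in the other AZ6983 mice). Mouse C6 stood apart in several of the measures below, and results that rest on it are given with and without it.

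The metallothionein genes lie next to each other on chromosome 8, Mt2 at chr8:94172618-94173567 and Mt1 at chr8:94178883-94180327 (GRCm38.p6). Their promoters and 1 of Sgk1 are shown because they hold the motifs searched, Mt1 both kinds, Mt2 metal response elements and Sgk1 a glucocorticoid response element. The windows run from 250 bases before the RefSeq start to 30 bases after it, 5′ to 3′ on the plus strand, with matches in capitals.
Mt1 promoter, chr8:94178839-94179118: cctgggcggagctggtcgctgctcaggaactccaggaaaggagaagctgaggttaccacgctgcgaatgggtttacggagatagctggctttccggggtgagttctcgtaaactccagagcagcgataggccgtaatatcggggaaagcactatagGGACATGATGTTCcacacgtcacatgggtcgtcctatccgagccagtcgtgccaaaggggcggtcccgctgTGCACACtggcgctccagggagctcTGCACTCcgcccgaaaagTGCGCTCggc
Mt2 promoter, chr8:94172368-94172647: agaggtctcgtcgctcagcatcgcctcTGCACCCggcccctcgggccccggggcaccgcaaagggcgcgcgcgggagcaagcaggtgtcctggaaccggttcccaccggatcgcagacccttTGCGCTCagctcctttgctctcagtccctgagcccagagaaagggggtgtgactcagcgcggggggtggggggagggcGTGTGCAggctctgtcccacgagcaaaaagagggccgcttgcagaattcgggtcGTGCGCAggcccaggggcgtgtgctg
Sgk1 promoter, chr10:21993640-21993919: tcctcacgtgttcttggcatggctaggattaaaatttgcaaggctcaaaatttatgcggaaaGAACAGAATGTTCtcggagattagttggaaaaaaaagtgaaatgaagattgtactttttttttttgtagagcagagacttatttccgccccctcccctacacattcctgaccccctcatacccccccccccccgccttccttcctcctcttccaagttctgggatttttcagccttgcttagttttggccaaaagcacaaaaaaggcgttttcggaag
The metal response element was searched as TGCACNC or TGCGCNC and the glucocorticoid response element as GNACANNNTGTNC, both on either strand, in windows of 250 bases before and 50 after each start. Mt1 had 3 metal response element matches and 1 glucocorticoid response element match, GGACATGATGTTC, which begins 94 bases before the start used for its window. That start lies inside the Mt1 interval given above, which begins at 94178883, so the 2 RefSeq starts differ. Mt2 had 4 metal response element matches. A Sgk1 promoter that is not shown held 1 such match. Of all 32851 promoters of the RefSeq table, 25.7% held at least 1 metal response element match, 1.97% at least 3 and 0.517% at least 4. The glucocorticoid response element was in 0.475% of the promoters. It occurred in 1 of the 6 Sgk1 promoters, as GAACAGAATGTTC beginning 188 bases before that start. Promoters of 9 of the 10 genes were in the table, 17 in all, and Mt1 and Sgk1 were the 2 genes with a glucocorticoid response element in these windows. These are matches of letters, and binding was not measured.

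The coding sequences of Mt1 and Mt2 (GENCODE M21) are shown because the levels of the pair are compared with each other, with the bases that differ in capitals.
Mt1 coding sequence: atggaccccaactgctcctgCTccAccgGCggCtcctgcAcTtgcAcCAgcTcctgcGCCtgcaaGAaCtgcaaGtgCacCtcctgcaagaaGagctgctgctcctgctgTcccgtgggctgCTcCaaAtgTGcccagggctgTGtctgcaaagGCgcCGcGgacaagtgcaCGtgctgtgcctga
Mt2 coding sequence: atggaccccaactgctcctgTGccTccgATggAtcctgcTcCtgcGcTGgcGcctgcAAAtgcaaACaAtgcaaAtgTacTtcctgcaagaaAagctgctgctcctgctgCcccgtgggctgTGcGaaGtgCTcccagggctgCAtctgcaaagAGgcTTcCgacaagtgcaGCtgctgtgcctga
Each has 61 codons before the stop, of which 20 code for cysteine, and 38 of 186 bases differ (79.6% identity). The longest stretch that both share is 20 bases, shorter than a sequenced read, so reads of this region can be assigned to one gene or the other.

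Fkbp5, a chaperone partner that lowers the affinity of the glucocorticoid receptor for hormone, differed the most of the 10 between control mice. Fkbp5 was at 26.1 CPM in the lowest control mouse, at a median of 81.7 and at 158 CPM in the highest, a 6.07-fold range. In AZ6983 mice it was at 47.2 CPM in the lowest, a median of 57.2 and 61.3 CPM in the highest, a 1.30-fold range. All 6 AZ6983 mice were below the control median, yet the groups overlapped because C6 was below every AZ6983 mouse. The log2 fold change was −0.67 (SE 0.312, edgeR adjusted p = 0.492), which did not pass 10% FDR. Without C6 no AZ6983 mouse reached the lowest of the remaining controls, as in 1.3% of all genes tested. The log2 fold change was −0.86 (SE 0.207, edgeR adjusted p = 0.309), still short of the threshold.

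Zbtb16 (PLZF, a zinc finger repressor) spread widely in both groups. Controls ran from 46.4 CPM through a median of 139.6 to 179.6 CPM, and AZ6983 mice from 58.8 CPM through 99.9 to 144 CPM. C6 was the lowest of all mice and C3 the highest. The log2 fold change was −0.42 (SE 0.294, edgeR adjusted p = 0.603). Klf9, a Krüppel-like repressor, varied less. It ran from 150.7 CPM through 193 to 235.5 CPM in controls and from 155 CPM through 179 to 207 CPM in AZ6983 mice. Its log2 fold change was −0.11 (SE 0.105, edgeR adjusted p = 0.707).

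Tsc22d3 (GILZ, a leucine zipper protein that restrains inflammatory signalling) and Sgk1, a kinase that regulates ion transport, had nearly equal group means. Tsc22d3 was at 69.2, 124 and 143 CPM (lowest, median and highest) in controls and 98.1, 124 and 152 CPM in AZ6983 mice. Only C6 was below the range of the AZ6983 mice for this gene. Sgk1 was at 82.6, 95.8 and 120.2 CPM in controls and stayed between 95.7 and 108 CPM in AZ6983 mice. The log2 fold changes of Tsc22d3 and Sgk1 were 0.07 (SE 0.167, edgeR adjusted p = 0.904) and 0.05 (SE 0.087, edgeR adjusted p = 0.866). Errfi1, an inhibitor of the epidermal growth factor receptor, was the member with the largest positive difference. It was at 90.4, 111 and 139.9 CPM in controls and 121, 139.9 and 162 CPM in AZ6983 mice. Of the AZ6983 mice, 3 were above every control and 3 lay within the control range. The log2 fold change was 0.32 (SE 0.116, edgeR adjusted p = 0.450).

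The metallothioneins were lower on average in AZ6983 mice without passing the test, and the difference shrank without mouse C4. Mt1 was at 57.3, 103 and 209 CPM (lowest, median and highest) in controls and 69.6, 86.5 and 101.5 CPM in AZ6983 mice. Mt2 was at 18.5, 32.0 and 85.6 CPM in controls and 16.6, 22.95 and 25.1 CPM in AZ6983 mice. C4 was the highest mouse for both genes, 1.59-fold above the next for Mt1 and 2.23-fold for Mt2. The AZ6983 mice were all below the control median for both, but they overlapped the controls. Mt2 had a log2 fold change of −0.79 (SE 0.324, edgeR adjusted p = 0.466) and Mt1 of −0.40 (SE 0.256, edgeR adjusted p = 0.577). Without C4 these were −0.37 and −0.13. With reads outside genes as a covariate, the direction for Mt1 turned, to a log2 fold change of 0.0929.

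The ratio within the pair does not depend on sequencing depth. Of the Mt1 and Mt2 counts, Mt2 took 24.1% ± 3.22 (SD, n = 6) in the control group and 20.3% ± 1.69 (SD, n = 6) in the AZ6983 group. Shares ran from 19.9% to 29.1% in controls and from 19.0% to 23.3% in AZ6983 mice, and they overlapped. The difference of −3.72 percentage points had p = 0.0325 in an exact permutation test (two-sided), where the smallest p the design allows is 0.00216. With 1 mouse left out it ran from −4.55 to −2.71, and p rose above 0.05 without C3, C4, C6, A1, A4, A5 or A6. Without C4 the difference was −2.71.

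Pdk4 and Sult1a1 had similar group means. Pdk4 was at 385, 1016 and 1303 CPM (lowest, median and highest) in controls and 613.5, 688 and 2103 CPM in AZ6983 mice, with C6 far below the other controls and A5 far above the other AZ6983 mice. Its log2 fold change was −0.02 (SE 0.343, edgeR adjusted p = 0.991), and without A5 it was −0.45. Sult1a1 was at 26.3, 50.6 and 57.9 CPM in controls and 34.9, 43.3 and 48.2 CPM in AZ6983 mice. C6 was the lowest of all mice here too. The log2 fold change was −0.17 (SE 0.163, edgeR adjusted p = 0.714).

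**Figure D1:**
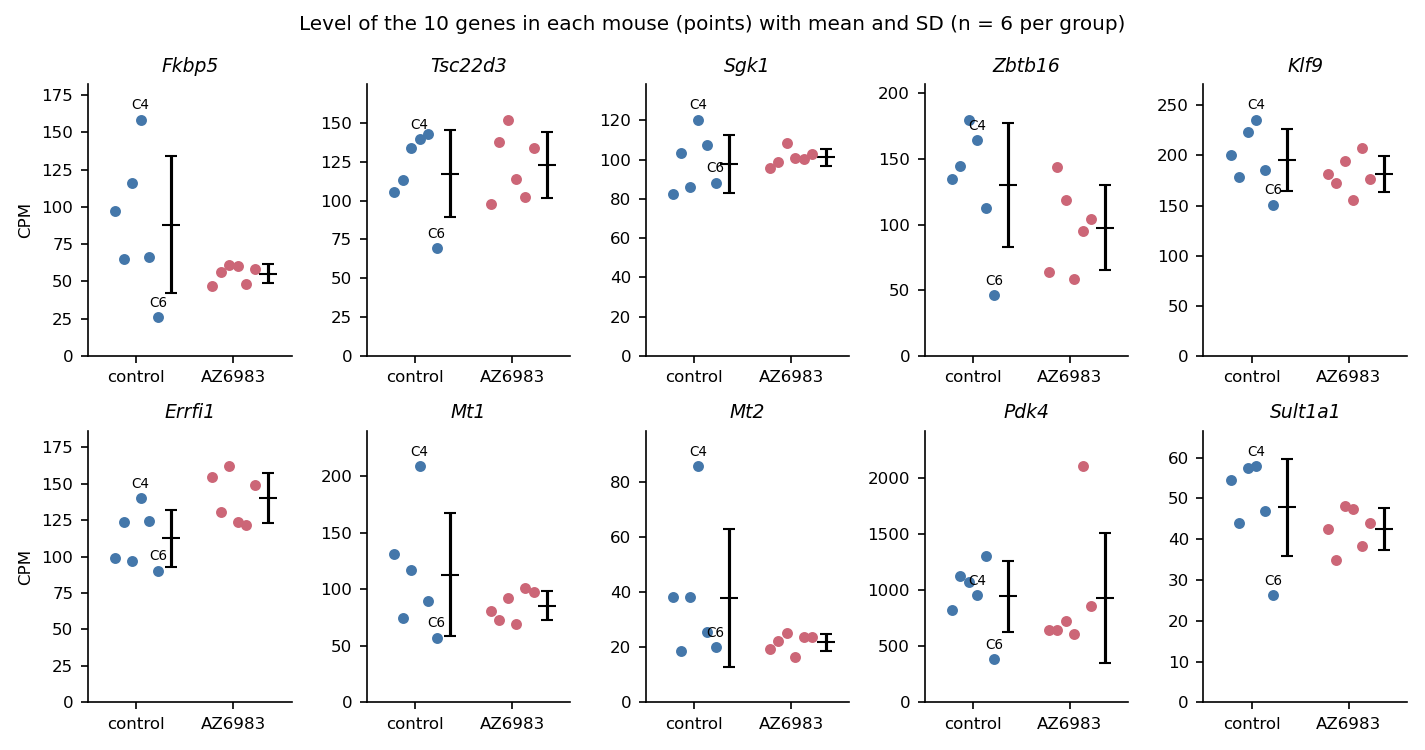
CPM (vertical axes, starting at 0) of the 10 genes in each control (blue) and AZ6983 (red) mouse, with the group mean and SD (n = 6) to the right of the points. Mouse C6 is the lowest control for Fkbp5 at 26.1 CPM and C4 the highest at 158 CPM, while the AZ6983 mice sit between 47.2 and 61.3 CPM.

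Levels per kilobase used the length of all annotated exons of a gene joined, 1246 bases for Mt1, 588 for Mt2 and 3511 for Pdk4. The order below depends on these lengths and was not examined with lengths of single transcripts. On this scale Pdk4 was the most abundant of the 10, at 269 CPM per kb in controls. Mt1 (90.8 CPM per kb) and Mt2 (64.2) followed, and Klf9 (40.6), Sult1a1 (31.7), Errfi1 (31.4), Tsc22d3 (27.0), Zbtb16 (24.7) and Sgk1 (19.98) came next. Fkbp5 was the least abundant at 9.31 CPM per kb. Mt1 was above Mt2 in all 12 mice on this scale, and Klf9 above Sult1a1 in all 12. Mt2 was above Klf9 in 8 of 12 mice, and Sult1a1 was above Errfi1 in only 2 of 12. Between the later neighbours from Errfi1 to Sgk1 the order of the means did not hold in every mouse either. Zbtb16 was above Sgk1 in 6 of 12. In AZ6983 mice the corresponding values were 266 for Pdk4, 68.8 for Mt1, 37.1 for Mt2, 37.7 for Klf9 and 5.84 for Fkbp5.

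None of the 10 genes passed 10% FDR in edgeR, and none of the 15857 genes tested did, a background of 0%. At an unadjusted p under 0.05, 2 of the 10 were called (Errfi1, higher, and Mt2, lower), against 10.2% of all genes tested. Of the 10, 3 were higher and 7 lower in AZ6983 mice, and their median log2 fold change was −0.14, beside 0.01 over all genes. In 0 of the 10 did the groups not overlap, against 0.41% of all genes. When reads outside genes entered the fit as a covariate, 0 of the 10 and 2.95% of all genes had an unadjusted p under 0.05.

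The count of 2 rose to 6 when C6 was left out, against 11.9% of all genes in the same fit. These were Fkbp5, Zbtb16, Mt1, Mt2 and Sult1a1, all lower in AZ6983 mice, and Errfi1, which was higher. Zbtb16 then had a log2 fold change of −0.59 (SE 0.218, edgeR adjusted p = 0.345) and Sult1a1 of −0.29 (SE 0.101, edgeR adjusted p = 0.330). Without C4 and C6 the count was 5, against 8.88% of all genes, and Fkbp5 had a log2 fold change of −0.65 (SE 0.160, edgeR adjusted p = 0.531). C6 was left out after its values were seen, and none of the 10 passed 10% FDR in any of these fits.

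**Figure D2:**
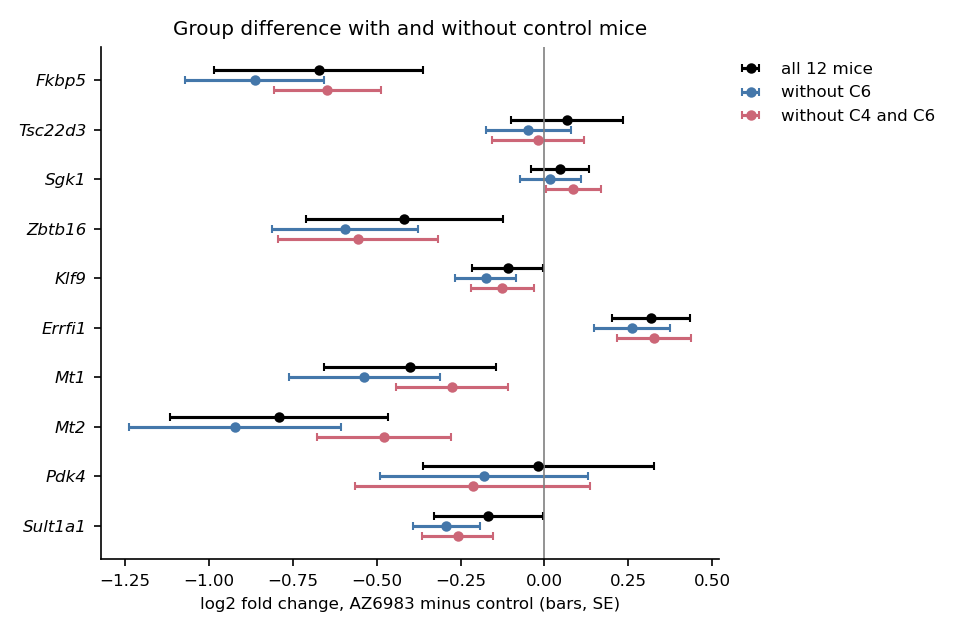
Log2 fold change of each gene, AZ6983 minus control, with its SE, for all 12 mice, without C6, and without C4 and C6 (horizontal axis, log2 scale). Fkbp5 is at −0.67, −0.86 and −0.65 in the 3 fits and Errfi1 stays above 0, while Tsc22d3, Sgk1 and Pdk4 lie within 1 SE or little more of 0.

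The spread between mice was greater in controls for most of the 10. On the log2 CPM scale, the SD of Fkbp5 was 0.903 in controls and 0.165 in AZ6983 mice, a ratio of 5.47. Mt2 followed at 0.815 against 0.223, Sgk1 at 0.214 against 0.060, Mt1 at 0.658 against 0.226 and Sult1a1 at 0.430 against 0.181. For Sgk1 in AZ6983 mice, counting alone gives an SD of 0.023 to 0.029. In these 5 of the 10 genes the control SD was over 2 times the AZ6983 SD, which held for 4.95% of the 12948 genes with a mean of at least 50 counts. The opposite, an AZ6983 SD over 2 times the control SD, occurred in 0 of the 10 and in 18.5% of those genes. The median SD over all of them was 0.151 in controls and 0.197 in AZ6983 mice, the reverse order to that in 9 of the 10. Pdk4 was the exception, at 0.629 in controls and 0.675 in AZ6983 mice.

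This count leaned on few mice. Without C6 it was 4 of 10, since Sult1a1 dropped to an SD of 0.179 in controls, and without C4 and C6 it was 3. The share over all genes was 4.01% without C6 and 4.77% without both. For Fkbp5 the control SD was 0.546 without C6 and 0.412 without both, still above the 0.165 of the AZ6983 mice. The difference in spread was not tested.

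**Figure D3:**
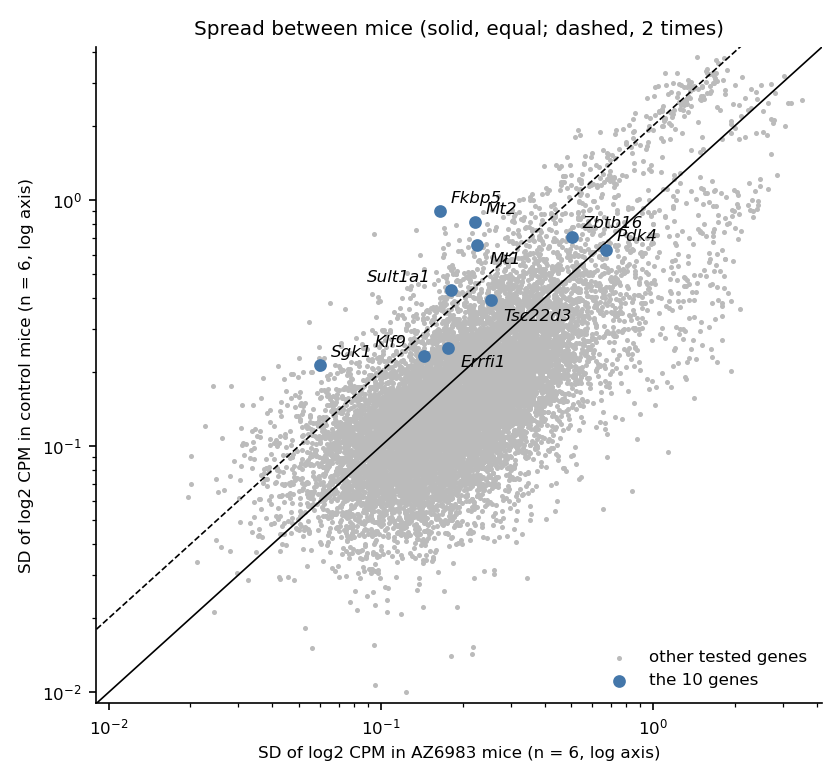
SD of log2 CPM across the 6 control mice (vertical) against that across the 6 AZ6983 mice (horizontal), both on log axes, for the 12948 genes with a mean of at least 50 counts (grey) and the 10 genes (blue). Fkbp5, Mt2, Mt1, Sgk1 and Sult1a1 lie above the dashed line, where the control SD is 2 times the AZ6983 SD.

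The low and high values came from the same mice in many of the genes. C6 was the lowest of the 12 mice in 8 of the 10, whereas it was lowest in 10.3% of all genes tested. Sgk1, lowest in C1, and Mt2, lowest in A4, were the exceptions. C4 was the highest mouse in 6 of the 10 (Fkbp5, Sgk1, Klf9, Mt1, Mt2 and Sult1a1), whereas it was highest in 4.82% of all genes. C3 was highest for Zbtb16, A3 for Tsc22d3 and Errfi1, and A5 for Pdk4. C6 also had the most immediate early gene RNA, a mean of 5.11 log2 CPM over Fos, Egr1 and similar genes. The AZ6983 mouse A1 came next at 4.84, and the other controls were at 3.575 to 4.07. C6 had the least brown fat RNA of the controls (6.92 against 7.75 to 7.95). Leptin (Lep), a hormone made by fat cells, was at 57.5 CPM in C6 and at 3.21 to 10.7 CPM in the other 11 mice. The part of these measures in the low values of C6 was not tested.

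**Figure D4:**
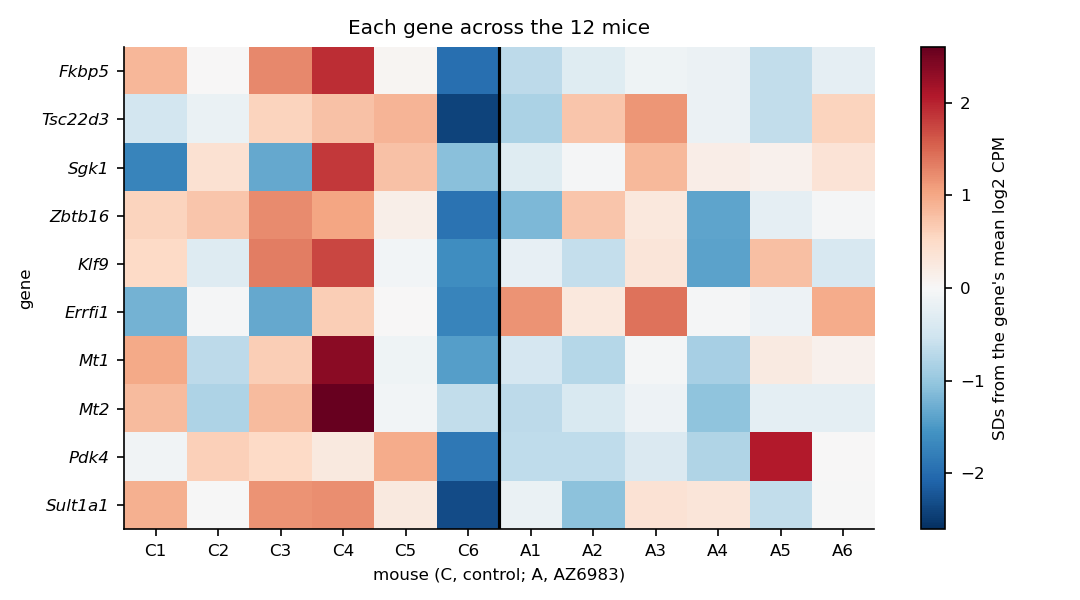
Each gene (rows) in each mouse (columns), coloured by the number of SDs from the gene's mean log2 CPM over the 12 mice. The column of C6 is blue in all 10 genes and that of C4 red to pale red, and the AZ6983 columns hold cells of both colours, the strongest of them Pdk4 in A5.

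Across the 12 mice, 13 of the 45 pairs of these genes were correlated at 5% FDR (Pearson's r of log2 CPM, permutation test with 100000 resamples, Benjamini-Hochberg over the 45 pairs), and all 13 were positive. Fkbp5, Zbtb16, Klf9, Mt1, Mt2 and Sult1a1 accounted for 11 of them. Mt1 and Mt2 had r = 0.94 (adjusted permutation p = 0.0009, Spearman's rho 0.85 with adjusted permutation p = 0.0123), and r = 0.92 without C4 and C6. Within groups r was 0.96 in controls and 0.79 in AZ6983 mice.

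Fkbp5 and Sult1a1 had r = 0.91 (adjusted permutation p = 0.00105, rho 0.92 with adjusted permutation p = 0.0018), and r = 0.83 without C4 and C6. Klf9 and Mt1 had r = 0.90 (adjusted permutation p = 0.00105, rho 0.91 with adjusted permutation p = 0.0018), and r = 0.82 without those mice. Within AZ6983 mice r was 0.49 for Fkbp5 with Sult1a1 and 0.83 for Klf9 with Mt1, and in controls 0.97 and 0.93. Klf9 with Mt2 (r = 0.82) and Fkbp5 with Mt2 (r = 0.82) stood at 0.81 and 0.79 without C4 and C6. By rho, Klf9 with Mt2 passed (0.77, adjusted permutation p = 0.043) and Fkbp5 with Mt2 did not (0.69, adjusted permutation p = 0.1). In AZ6983 mice alone r was 0.77 for Klf9 with Mt2 and −0.001 for Fkbp5 with Mt2. For Fkbp5 with Zbtb16 (r = 0.79), Fkbp5 with Mt1 (0.86) and Mt1 with Sult1a1 (0.75) it was 0.26, −0.25 and 0.04. Without C4 and C6 these pairs stood at 0.65, 0.64 and 0.59. Fkbp5 and Klf9 had r = 0.80 (adjusted permutation p = 0.0127, rho 0.66 with adjusted permutation p = 0.1), but r = 0.52 without C4 and C6, so the relation rests on those mice. Within groups its r was 0.98 in controls and −0.48 in AZ6983 mice. Zbtb16 and Klf9, Tsc22d3 and Zbtb16, and Klf9 and Sult1a1 likewise fell to 0.45, 0.33 and 0.41 without the 2 mice farthest from the median of the first gene.

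Errfi1 and Sgk1 formed a pair of their own at r = 0.73 (adjusted permutation p = 0.0288, rho 0.63 with adjusted permutation p = 0.106), and r = 0.73 without C1 and C4. Fkbp5 had r = 0.06 with Errfi1 and 0.23 with Sgk1, and −0.78 and −0.68 without C4 and C6. Pdk4 was in none of the 13 pairs, with r from 0.09 to 0.63 to the other 9. By Spearman's rho 5 pairs passed, without C6 6, and without C4 and C6 4. As a background, 1.65% of 12947 genes had r above 0.7 with Fkbp5, as 5 of the 9 other members did, and 1.34% had it with Mt1, as 4 did.

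**Figure D5:**
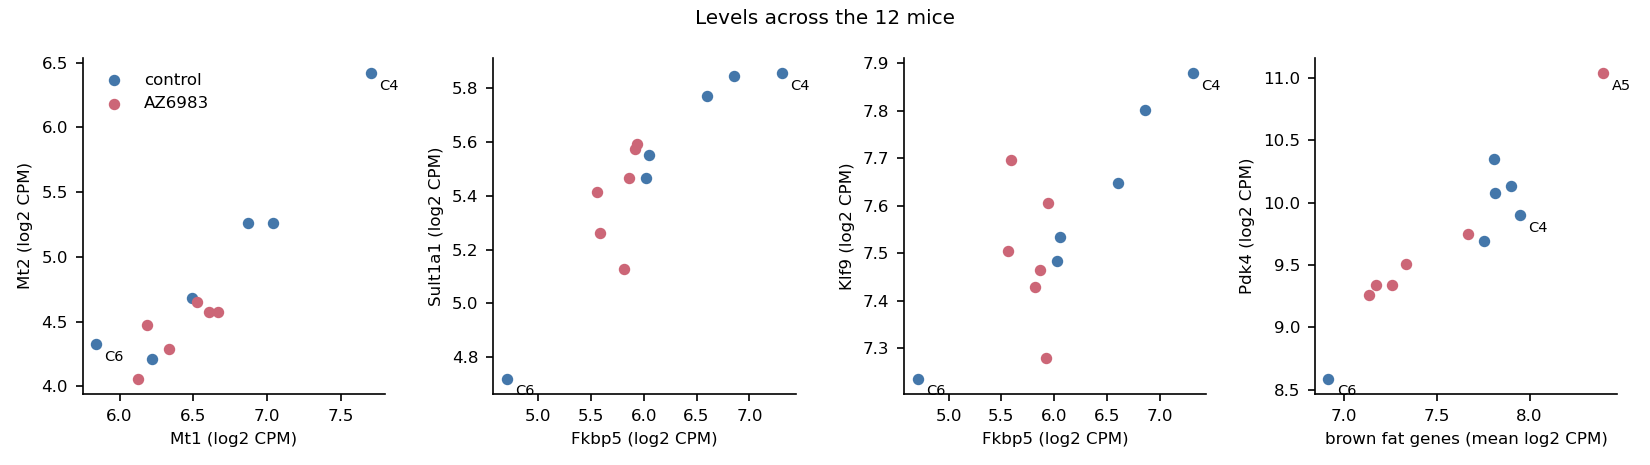
Log2 CPM of each control (blue) and AZ6983 (red) mouse for Mt2 against Mt1, Sult1a1 against Fkbp5, Klf9 against Fkbp5, and Pdk4 against the mean of the brown fat genes. The points rise together for Mt1 with Mt2, Fkbp5 with Sult1a1 and brown fat with Pdk4 (r = 0.94, 0.91 and 0.95), and for Fkbp5 with Klf9 the AZ6983 mice alone show no rise (r = −0.48).

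Other genes of the pathway were set against Fkbp5 in the same way, 105 tested genes of the pathway lists, after the values of Fkbp5 had been seen. Of these, 3 were positively and 3 negatively correlated with Fkbp5 at 5% FDR. Both hormone receptors were among the negative ones. Nr3c1, the glucocorticoid receptor, was at 245 to 307.5 CPM, highest in C6 and lowest in C3 and C4, and had r = −0.93 with Fkbp5 (adjusted permutation p = 0.000787, rho −0.83 with adjusted permutation p = 0.0292). Nr3c2, the mineralocorticoid receptor, which also binds corticosterone, was at 22.1 to 40.6 CPM and had r = −0.92 (adjusted permutation p = 0.00035, rho −0.94 with adjusted permutation p = 0.0014). Without C4 and C6, r was −0.87 for Nr3c1 and −0.88 for Nr3c2. Within AZ6983 mice it was −0.19 and −0.76.

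Map3k6, a stress-activated kinase, ran from 13.5 CPM in C6 to 43.2 CPM in C4 and had r = 0.97 with Fkbp5 (adjusted permutation p = 0.00035, rho 0.95 with adjusted permutation p = 0.0014), and 0.93 without C4 and C6. Fam107a ran from 13.9 CPM in C6 to 56.1 CPM in C3 and had r = 0.91 (adjusted permutation p = 0.00035, rho 0.94 with adjusted permutation p = 0.0014), and 0.89 without those mice. Within AZ6983 mice r was 0.40 for Map3k6 and 0.68 for Fam107a, and in controls it was 0.99 and 0.97. Both genes come from a list of other glucocorticoid-induced genes, in which 2 of 19 were correlated with Fkbp5. Klf15, a relative of Klf9, had r = 0.83 (adjusted permutation p = 0.0254, rho 0.74 with adjusted permutation p = 0.124), but 0.59 without C4 and C6. Fosb, an immediate early gene with 8.91 CPM in C6 and 1.803 to 7.24 CPM elsewhere, had r = −0.78 (adjusted permutation p = 0.0254, rho −0.92 with adjusted permutation p = 0.0021), and −0.71 without those mice. Per1, Dusp1 and Cebpd, classic targets of the receptor, were not among the genes correlated with Fkbp5. A coefficient at least as far from 0 as that of Fosb was found in 0.672% of 12947 genes on the positive side and 0.734% on the negative side.

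Among all genes with a mean of at least 50 counts, the 5 whose deviations from the group means were most like those of Fkbp5 over the 12 mice were Map3k6 (r = 0.96), Bcl2l1 (0.95), Cyp2b10 (0.93), Sdc4 (0.93) and Limd1 (0.92). For the mean of Mt1 and Mt2 they were Hras (0.90), Limd1 (0.86), Fbxo31 (0.85), Lrrc8a (0.85) and Tcn2 (0.84). For Pdk4 they included Adgrf5 (0.98), Slc25a51 (0.97), Prkar2b (0.97) and Ndufaf4 (0.97). These genes were ranked by this measure, so their coefficients are a description.

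Between the groups, none of the genes of the pathway lists passed 10% FDR. The counts of list genes at an unadjusted p under 0.05 stand beside 10.2% of all genes tested. Of the receptor, its enzymes and chaperones, 12 of 13 could be tested, and 1 (Ncor1, a corepressor, log2 fold change 0.20, edgeR adjusted p = 0.450) had an unadjusted p under 0.05. Nr3c1 had a log2 fold change of 0.06 (edgeR adjusted p = 0.727), Nr3c2 of 0.21 (0.588) and Hsd11b1, which regenerates active glucocorticoid inside cells, of 0.12 (0.673). Hsd11b2, which inactivates it, had 0 to 5 counts per mouse and was not tested. The coactivator Ncoa1 was at 0.21 (edgeR adjusted p = 0.492).

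In the list of 19 other glucocorticoid-induced genes, 3 had an unadjusted p under 0.05 upward and 2 downward, so the list did not move one way. Of all 15857 genes tested, 1170 had such a p upward and 446 downward, 10.2% together. Ddit4, an inhibitor of mTOR signalling, had a log2 fold change of 0.62 (SE 0.172, edgeR adjusted p = 0.447), and Nfkbia and Rasd1 were at 0.33 and 0.31. Fam107a was at −0.72 and Cdkn1c, a cell cycle inhibitor, at −0.29 (SE 0.086, edgeR adjusted p = 0.447). Per1 was at 0.31 (edgeR adjusted p = 0.535), Cebpd at 0.15 (0.733), Angptl4 at 0.08 (0.934) and Dusp1 at 0.07 (0.953). Ccl2, a chemokine that glucocorticoids repress, was at −0.53 (SE 0.214, edgeR adjusted p = 0.462), the only 1 of 10 tested genes of the repressed list with an unadjusted p under 0.05. Vcam1 of the same list was at −0.43 (edgeR adjusted p = 0.503).

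No gene reached an unadjusted p under 0.05 among 11 zinc handling genes, 16 genes of fasting and pyruvate dehydrogenase, 12 relatives of the members or 14 immediate early genes. Over all genes tested the share was 10.2%. Mtf1 was at a log2 fold change of 0.08 (edgeR adjusted p = 0.747), the zinc exporter Slc30a1 at −0.12 (0.615) and Slc30a4 at −0.10 (0.604). Ppard, a nuclear receptor for fatty acids, was at 0.28 (0.530). Among the relatives Tsc22d4 was at 0.21 (0.528) and Fkbp1a at 0.10 (0.561), and among the immediate early genes Fosb was at 0.64 (0.547) and Ier2 at −0.26 (0.611).

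Genes of the circadian clock were compared in the RNA of the aorta, and the daily rhythm of corticosterone itself was not measured. Of 9 genes that peak with Dbp, 3 had an unadjusted p under 0.05 and were lower in AZ6983 mice. Over all 15857 genes tested, 446 were lower with such a p. Tef was at −0.42 (edgeR adjusted p = 0.447), Nr1d2 at −0.37 (0.450) and Ciart at −0.60 (0.476). Of 5 genes in the opposite phase, Npas2 was at 0.79 (SE 0.199, edgeR adjusted p = 0.447) and Nfil3 at 0.45 (0.528). The difference between the phases was 0.092 ± 0.518 in controls and −0.542 ± 0.496 in AZ6983 mice (mean log2 CPM ± SD, n = 6 each, exact permutation test, two-sided, p = 0.0628). The times of day at which the mice were killed were not analysed here.

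Set against 8 measures of other tissues and of library quality, only Pdk4 had a relation that passed 5% FDR out of 80. Pdk4 rose with the mean of the brown fat genes at r = 0.95 (adjusted permutation p = 0.0016, rho 0.93 with adjusted permutation p = 0.004), and r = 0.89 without A5 and C6, the mice at the ends. Within groups r was 0.93 in controls and 0.99 in AZ6983 mice. The brown fat list includes Ucp1 and Cidea and does not hold Pdk4. Klf9 had r = 0.72 with the same measure (adjusted permutation p = 0.211, rho 0.78 with adjusted permutation p = 0.152), which did not pass. Zbtb16 (r = 0.61, adjusted permutation p = 0.275), Mt1 (0.62, 0.275) and Fkbp5 (0.51, 0.43) did not pass either. Without A5 and C6 these stood at 0.73, 0.63 and 0.69. Within controls r was 0.95 for Zbtb16, 0.66 for Mt1 and 0.86 for Fkbp5, and within AZ6983 mice 0.22, 0.78 and −0.43. Errfi1 had r = −0.02 over all mice. The part of brown fat RNA in the spread of these genes was not tested.

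The immediate early genes, which respond within minutes to handling and stress, had r = −0.74 with Sult1a1 (adjusted permutation p = 0.211, rho −0.67 with adjusted permutation p = 0.306), and −0.56 without A1 and C6. With Fkbp5 r was −0.66 (adjusted permutation p = 0.257, rho −0.76 with adjusted permutation p = 0.156), and −0.22 without A1 and C6. Neither passed the correction. For Mt2 and the share of reads outside genes, r was −0.60 (adjusted permutation p = 0.275, rho −0.65 with adjusted permutation p = 0.306).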

How the data were processed

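RNA from the thoracic aorta of 12 mice was depleted of ribosomal RNA and sequenced as stranded, paired reads. The authors deposited raw counts per gene symbol, made per the labels with CASAVA 1.8.2, STAR 2.5.2b and HTSeq 0.6.1p1 on mm10. Reads that aligned to several places or to several genes stand in rows that name no gene, and these rows entered neither library sizes nor tests, except that reads outside genes (8.02% to 14.9% of the table) were used as a measure of each library. Depth was 23810036 to 35864666 counts per mouse, and the members had 468 to 51476 counts. One column, for mouse A1, matched its label by part of the mouse number. No 2 libraries were copies (chi-square of 12.0 to 226 per degree of freedom over 66 pairs).

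The members and gene lists were chosen with earlier results of these data known. Groups were compared by edgeR 4.0.16 in R 4.3.3 (TMM, filterByExpr, quasi-likelihood test, no covariate, Benjamini-Hochberg over all genes, 10% FDR). SE is the size of the log2 fold change over the square root of F. The labels give no batch or pairing, and the numbers 1 to 12 on the columns are not explained. Log2 CPM used a prior count of 2. Correlations used permutation tests in Python 3.11.15 with scipy 1.17.1, and coding and promoter sequences came from GENCODE M21 and RefSeq (GRCm38.p6, the same build as mm10), which also gave exon lengths and positions. Nothing in the labels says that mice were independent of litter or cage, which the p-values assume.

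Named were the 10 members, fixed genes of the hormone and zinc pathways, the 2 genes of smallest p in each pathway list, the 5 most alike in 3 patterns, and marker genes where 1 mouse stood apart. Some genes that this rule names are not reported here. Further list genes with an unadjusted p under 0.05, or correlated with Fkbp5, were named after their values were seen, as was the comparison of list genes with Fkbp5. Alternatives were DESeq2 1.42.0, limma-voom (limma 3.58.1), edgeR's robust fit, other scalings and filters, reads outside genes as a covariate, 5% FDR, Spearman's rho, and each mouse left out. Fits without C4 and C6 were added after seeing the data. Fits and correlations were tested on simulated data.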

Additional observations from a re-analysis of the deposited data

Results flagged for a closer look

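The 10 genes, the tissue and library measures and the Mt2 share in each treatment group gave 38 groups of 6 mice. In 8 of the 38, 1 mouse lay farther from the rest than Dixon's limit allows, where chance gives about 1.9 on average. C6 accounted for 5 of the 8. The same mice recur across the groups and some measures are correlated, so 1 unusual mouse can be counted several times. Setting 8 beside 1.9 therefore does not test for an excess over chance. Zbtb16 was at 5.54 log2 CPM in C6 and at 6.81 to 7.49 in the other controls. Sult1a1 was at 4.72 log2 CPM in C6 and at 5.46 to 5.86 in the others, and Pdk4 at 8.59 against 9.69 to 10.35. The brown fat genes of C6 had a mean of 6.92 log2 CPM against 7.75 to 7.95, and its immediate early genes 5.11 against 3.575 to 4.07.

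Pdk4 was at 11.04 log2 CPM in A5 and at 9.26 to 9.75 in the other AZ6983 mice. The T cell genes had a mean of 6.402 log2 CPM in A4 and -0.48 to 1.92 in the others. The white fat genes had a mean of 8.13 log2 CPM in C2 and 7.38 to 7.63 in the other controls.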

How the results depend on the processing

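No member passed 10% FDR under any alternative. Genes past 10% FDR, 0 in edgeR (1616 at an unadjusted p under 0.05), numbered 92 by DESeq2 and 2 with library totals in place of TMM, and 0 to 27 with 1 mouse left out (27 without A5), and 1 without C4 and C6. The count of members with an unadjusted p under 0.05 was 2, against 10.2% of all genes. It was 3, with Fkbp5 added, by DESeq2 (1966 of 24866 genes), RLE size factors (10.2%), library totals (8.17%) and no filter (9.35%). By limma-voom it was 1 (9.54%), with reads outside genes as a covariate 0 (2.95%), and without C4 and C6 5 (8.88%). With 1 mouse left out it was 1 to 6 (6 without C6, 1 without C3, C4, A1 or A4), against 6.52% to 14% of all genes. The count of members whose groups did not overlap was 0 to 1 with 1 mouse left out (Fkbp5 without C6, where 1.3% of all genes did not overlap). Correlated pairs numbered 5 by Spearman's rho, 4 without C4 and C6, and 6 to 15 with 1 mouse left out (6 without C6, 7 without C3, 8 without C4), and relations with other measures 1 to 3 (3 without A5). Members with a control SD over 2 times the AZ6983 SD were 3 of 10 without C4 and C6, against 4.77% of all genes. With 1 mouse left out they were 4 to 5, against 4.01% to 6.02% of all genes where that mouse was a control. The Mt2 share differed by −4.55 to −2.71 with 1 mouse left out. The causes were not tested.

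With reads outside genes as a covariate, the log2 fold changes of 8 named genes changed sign, Mt1 (−0.40 with no covariate) and Per1 (0.31) among them, to −0.0226 for Tsc22d3, −0.0131 for Sgk1, 0.0305 for Klf9, 0.0929 for Mt1, 0.0855 for Sult1a1, −0.0811 for Mtf1, −0.0278 for Per1 and −0.0295 for Ncoa1. Without C4 and C6, Tsc22d3 was at −0.0199 and Angptl4 at −0.0652. With 1 mouse left out, Tsc22d3 ran from −0.0483 to 0.12, Sgk1 from −0.00319 to 0.11, Pdk4 from −0.45 to 0.0797, Dusp1 from −0.17 to 0.38 and Angptl4 from −0.22 to 0.13. By DESeq2, Npas2 passed 10% FDR at a log2 fold change of 0.78. No paired analysis was possible because the labels give the groups no shared replicate numbers.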
